A study of Homo sapiens with 8 samples.

Results

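The genes described here belong to bone morphogenetic protein (BMP) signalling: the ligand gene BMP4, the receptor genes BMPR1A and BMPR2, the signal-carrying SMAD1 and SMAD5, the inhibitory SMAD6 and SMAD7, and the target genes ID1, ID2 and ID3. The members were all probe sets annotated to one of these 10 genes, and the set was chosen by the BMP4 intensities themselves, which were lower in cells given PF-03084014, so the BMP4 differences below are given as a description with no test. Of 19775 genes measured, 9 are members with values. They were read by 24 probe sets: 6 for BMPR2, 5 for SMAD5, 4 for SMAD6, 3 for SMAD1, 2 for ID2 and 1 each for BMP4, SMAD7, ID1 and ID3. No probe set was annotated to BMPR1A, which is not analysed here, and 1 further probe set listed ID2 together with ID2B and is given only in the closing observations.

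BMP4 is a secreted dimer that binds a complex of type I and type II receptor kinases, BMPR1A and BMPR2 among them. The activated receptors phosphorylate SMAD1 and SMAD5, which enter the nucleus with SMAD4 and switch on targets, of which the ID genes are the best known. SMAD6 and SMAD7 are induced by the same signal in many cells and hold it back. ID proteins lack a DNA-binding region and capture E proteins such as TCF3 and TCF12, transcription factors that direct early T cell development. In the thymus BMP4 is known mainly as a product of stromal cells, and ID genes in developing T cells also answer to signals other than BMP.

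CUTLL1 cells, a human T-cell line in which NOTCH1 signalling is active, were treated for 48 h. The 4 groups were PF-03084014 at 1 microM, a gamma-secretase inhibitor that blocks NOTCH receptor cleavage, dexamethasone at 1 microM, a synthetic glucocorticoid, both compounds at 1 microM each (the combination), and DMSO, the vehicle alone, with 2 arrays per group. CUTLL1 is 1 line, and the labels do not say whether the 2 arrays of a group came from separate cultures, and the tests therefore speak only to the spread among these 8 arrays. Levels are given as linear probe-set intensities. Differences are in log2 units from a limma fit of all arrays with its standard error (SE), and a gene is called, and said to rise or fall, at a Benjamini-Hochberg adjusted p under 0.05 over all genes.

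The second combination array stood apart, with a median of 76.3 where the rest had medians of 61.8 to 63.9, and every result that uses the combination is read with that in mind. NRARP, a feedback inhibitor of NOTCH signalling, read 948 and 898 with PF-03084014 and 6280 and 5414 in DMSO, and TSC22D3, a glucocorticoid-induced gene, read 5526 and 5478 with dexamethasone and 506 and 583 in DMSO. All 8 T-lineage markers had a mean intensity over 100, led by CD3D at 12131 to 14030. Summed intensity over 5 B-lineage markers was 883 to 920 with PF-03084014, 910 to 922 with dexamethasone, 1009 to 1411 with the combination and 812 to 847 in DMSO, against 37223 to 44768 for the T-lineage list over all arrays. The B-lineage members did not move alike: CD79A read 504 and 585 with the combination and 297 and 299.9 in DMSO, whereas MS4A1 read 63.9 and 74.1 with the combination and 132 and 83.4 in DMSO. The sum over 5 myeloid markers was 469 to 536 with PF-03084014, 399.5 to 443 with dexamethasone, 319 to 381 with the combination and 528 to 574 in DMSO. These members did not move alike either. ITGAM read 112 and 102 with the combination and 330 and 372 in DMSO, and MPO 47.5 and 33.7 against 71.0 and 62.0. CSF1R instead read 104 and 210 with the combination and 86.3 and 99.7 in DMSO. CD14 and LYZ overlapped between these groups at low intensity. The part of these differences in the results below was not tested.

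BMP4 was markedly lower wherever PF-03084014 was present. Its probe set read 176 and 173 with PF-03084014, 1124 and 1052 with dexamethasone, 181 and 88.7 with the combination, and 900.5 and 731 in DMSO. Every array with PF-03084014, alone or combined, lay far below every array without it, and both dexamethasone arrays lay above both DMSO arrays. Mean log2 intensity was 7.45 ± 0.020 with PF-03084014 and 9.66 ± 0.21 in DMSO (mean ± SD, n = 2), a 4.65-fold lower level. The fitted log2 differences from DMSO were -2.22 (SE 0.33) for PF-03084014, 0.42 (SE 0.33) for dexamethasone and -2.68 (SE 0.33) for the combination, and that of the combination against PF-03084014 was -0.46. Without the second combination array the last value was 0.048, so the lower level of the combination than of PF-03084014 rested on that array. In bulk RNA, fewer cells that express a gene and less of its RNA per cell cannot be told apart.

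Among the targets, ID1 was lower wherever PF-03084014 was present, as BMP4 was. With dexamethasone alone the arrays of ID1 lay below both DMSO arrays, by the narrow gap of 666 to 679, and those of BMP4 above them. Whether the 2 genes differ in their response to dexamethasone was not tested. The intensity of ID1 was 184 and 129 with PF-03084014, 666 and 580.1 with dexamethasone, 122 and 70.0 with the combination, and 829 and 679 in DMSO. All ID1 arrays with PF-03084014 lay below those without it. In the combination ID1 fell by 3.02 (SE 0.32) on the log2 scale, to a level 8.13-fold lower, against DMSO (limma adjusted p = 0.00678), and fell by 2.75 (SE 0.32) against dexamethasone (adjusted p = 0.0172). With PF-03084014 alone the difference from DMSO was -2.29 (SE 0.32, 95% interval -3.09 to -1.48), of nearly the size seen for BMP4, but it narrowly missed the threshold (limma adjusted p = 0.0568). Dexamethasone alone gave -0.27 (interval -1.07 to 0.53), and the combination differed from PF-03084014 by -0.74 (interval -1.54 to 0.065), neither called. In the combination against DMSO the ID1 call held whichever array was left out, with a difference of -2.62 without the second combination array. Against dexamethasone it held in 6 of 8 such fits and ended without either dexamethasone array (limma adjusted p = 0.120 without the first and 0.103 without the second, with a range over all alternatives of 0.000567 to 0.133).

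Likeness to BMP4 was measured as the root mean square difference between the log2 values of each gene over the 8 arrays, after centring each gene on its own mean. It uses the BMP4 intensities that chose the set, so the ranks are a description and not a test. Any gene with a fall of similar size under PF-03084014 and little change with dexamethasone lies near BMP4 on this measure. A link of ID1 to BMP4 was not tested. Of 10791 genes with a mean intensity of 100 or more, ID1 was the second nearest to BMP4, at 0.306 log2 units, against a median of 1.39 over these genes. The other genes among the nearest 5 were NRARP at 0.289, the repressor gene HEY1 at 0.328, the ubiquitin ligase gene DTX1 at 0.383 and the repressor gene HES4 at 0.393. HEY1 read 41.5 and 40.6 with PF-03084014, 257 and 263 with dexamethasone, 43.7 and 42.2 with the combination and 216 and 185 in DMSO. The other members were much farther from BMP4: SMAD6 ranked 187 at 1.04, SMAD1 ranked 1768, SMAD5 2218, ID2 4623, ID3 4978, and BMPR2 10701 at 1.82. SMAD7, with a mean intensity below 100, was not ranked. ID1 ranked 5 without the second combination array and 1 after quantile normalization, both tried after the values were seen, and in each case 4 of the 5 nearest genes were shared with those named.

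**Figure D1:**
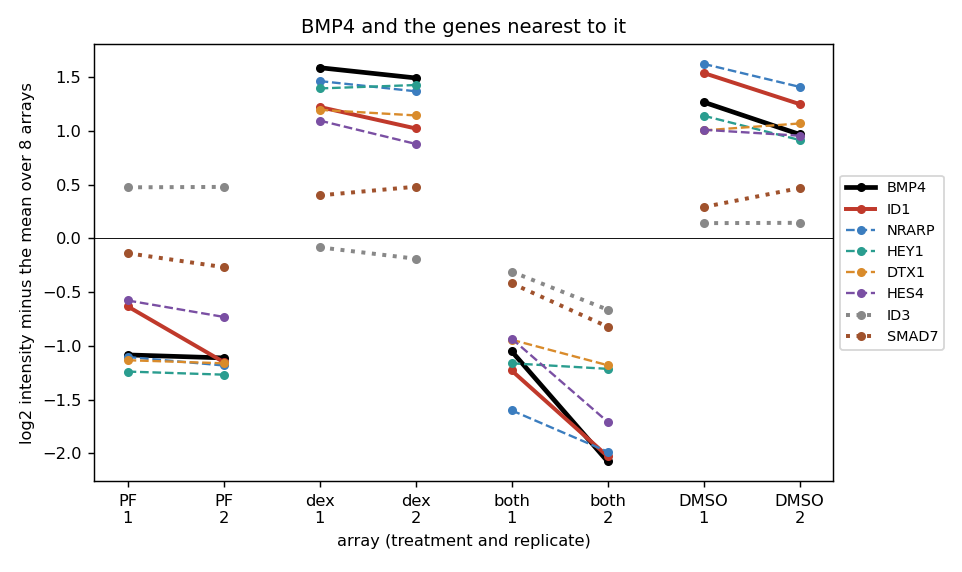
Log2 intensity minus the gene's mean over the 8 arrays (y axis) on each array (x axis; PF, PF-03084014; dex, dexamethasone; both, the combination) for BMP4, the 5 genes nearest to it, ID3 and SMAD7; lines join the 2 arrays of a group. BMP4, ID1, NRARP, HEY1, DTX1 and HES4 lie below 0 on every array with PF-03084014 and above 0 on every other array, while ID3 is highest with PF-03084014 alone and lowest with the combination.

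The sequence before the start of BMP4, ID1 and SMAD6 is shown because ID1 was the member nearest to BMP4 by the measure above and SMAD6 carries a rare SMAD motif. Each is 250 bases before the start of a RefSeq transcript (GRCh38.p14), written 5′ to 3′ on the strand of the gene, with matches to the searched motifs in capitals. BMP4 is at chr14:53955051-53955300 (minus strand, the most upstream of 3 starts), ID1 at chr20:31605039-31605288 (plus strand) and SMAD6 at chr15:66701986-66702235 (plus strand).
BMP4: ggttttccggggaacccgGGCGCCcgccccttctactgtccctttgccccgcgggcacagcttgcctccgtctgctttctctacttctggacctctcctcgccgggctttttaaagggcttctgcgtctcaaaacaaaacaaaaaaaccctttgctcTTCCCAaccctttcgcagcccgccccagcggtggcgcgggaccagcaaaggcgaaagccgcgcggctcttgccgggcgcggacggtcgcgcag
ID1: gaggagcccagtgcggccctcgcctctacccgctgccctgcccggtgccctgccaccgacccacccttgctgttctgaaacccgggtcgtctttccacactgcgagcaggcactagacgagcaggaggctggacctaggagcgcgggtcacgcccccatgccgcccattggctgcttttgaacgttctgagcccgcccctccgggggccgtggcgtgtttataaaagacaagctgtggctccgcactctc
SMAD6: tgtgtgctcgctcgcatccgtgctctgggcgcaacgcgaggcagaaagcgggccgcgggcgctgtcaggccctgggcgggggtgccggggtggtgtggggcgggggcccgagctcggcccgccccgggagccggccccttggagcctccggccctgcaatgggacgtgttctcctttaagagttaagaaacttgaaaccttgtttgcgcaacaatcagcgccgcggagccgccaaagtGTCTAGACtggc

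The motifs searched on both strands were GGCGCC, the core of a BMP response element, GTCTAGAC, a SMAD binding element, TGGGAA, the core of the site bound by the NOTCH partner RBPJ, and the palindromic glucocorticoid receptor site. The BMP4 window held GGCGCC from -232 to -227 and TGGGAA on the opposite strand from -93 to -88, counted from the start, and the windows at the 2 other BMP4 starts held none of the motifs. The ID1 window held none of them, nor did those of ID2, ID3 and BMPR1A. Windows of BMPR2 and SMAD1 held GGCGCC, and windows of SMAD5 and SMAD7 held TGGGAA. GTCTAGAC stood in the SMAD6 window from -12 to -5. Of 34943 such windows over all genes, 16.4% held GGCGCC, 0.183% GTCTAGAC and 20.9% TGGGAA, and 1 held the glucocorticoid receptor site. Each match is a description of the letters in this window, not a site or a cause. The absence of a match covers only these 250 bases, and sequence farther from the start was not searched.

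ID3, the brightest member, did not follow BMP4. It read 5836 and 5852 with PF-03084014, 3963 and 3683 with dexamethasone, 3389 and 2651 with the combination, and 4633 and 4642 in DMSO, with no overlap between any of the 4 groups. PF-03084014 alone thus lay above DMSO, where BMP4 and ID1 lay below it, and the combination was the lowest group. The difference from DMSO was 0.33 (SE 0.12, limma adjusted p = 0.314) with PF-03084014 and -0.28 (SE 0.12, adjusted p = 0.583) with dexamethasone, neither called. ID3 fell in the combination, by 0.63 (SE 0.12, adjusted p = 0.0295) against DMSO and by 0.96 (SE 0.12, adjusted p = 0.0269) against PF-03084014. The ID3 call against DMSO held in 2 of 8 fits with an array left out, those without either combination array. The interaction of the compounds, the departure of the combination from the sum of the single effects, was -0.68 (SE 0.16) and was not called (limma adjusted p = 0.382).

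ID2 was dim and varied between replicates. Its brighter probe set read 147 and 80.8 with PF-03084014, 140 and 127 with dexamethasone, 198 and 131 with the combination, and 194 and 126 in DMSO. All 4 groups overlapped, and the differences from DMSO of -0.52, -0.23 and 0.042 log2 units had intervals of -1.50 to 0.46, -1.21 to 0.75 and -0.94 to 1.02. The dimmer ID2 probe set read 38.6 and 27.9 with PF-03084014, 37.1 and 45.4 with dexamethasone, 69.8 and 53.3 with the combination, and 51.5 and 30.9 in DMSO. On it both combination arrays lay above all others, by 0.61 (SE 0.33, limma adjusted p = 0.329) against DMSO and 0.89 (SE 0.33, adjusted p = 0.288) against PF-03084014. No ID2 difference was called on either probe set, and changes within these wide intervals could not be seen.

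The inhibitory SMAD7 was lower with PF-03084014 by far less than BMP4. Its intensity was 74.8 and 68.4 with PF-03084014, 109 and 115 with dexamethasone, 61.6 and 46.6 with the combination, and 101 and 114 in DMSO. Arrays with PF-03084014 again lay below all arrays without it, so the order of groups was that of BMP4. SMAD7 fell in the combination by 1.00 (SE 0.19, limma adjusted p = 0.0329) against DMSO and by 1.06 (SE 0.19, adjusted p = 0.0401) against dexamethasone, and with PF-03084014 alone stood at -0.58 (SE 0.19, adjusted p = 0.292). SMAD7 lies near the array median in intensity, and its call against DMSO held in 1 of 8 fits with an array left out, with a difference of -0.80 without the second combination array.

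SMAD6, the BMP-specific inhibitor, gave no clear answer because its probe sets disagreed. The brightest read 130 and 118 with PF-03084014, 163 and 126 with dexamethasone, 88.3 and 48.5 with the combination, and 144 and 129 in DMSO. Only the combination lay apart, below all other arrays, at -1.06 (SE 0.32, limma adjusted p = 0.100) against DMSO, while PF-03084014 stood at -0.14 (interval -0.94 to 0.66). The 3 other SMAD6 probe sets, all dimmer, were higher in the combination than in DMSO by 0.21, 0.36 and 1.22, none of them called. In that order they read 45.5 and 72.7, 2.29 and 26.3, and 44.2 and 51.4 with the combination. In DMSO they read 54.0 and 46.0, 10.6 and 12.6, and 25.3 and 16.6. Values under 16 were set to that floor, so the 0.36 came from the second combination array alone. The mean over the 4 was 0.18 higher, and the disagreement rests on these low intensities.

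The signal-carrying SMAD1 fell slightly in the combination. Its brightest probe set read 1152 and 1153 with PF-03084014, 1202 and 1286 with dexamethasone, 917 and 980 with the combination, and 1235 and 1204 in DMSO. The combination arrays lay below all others, with a fall of 0.36 (SE 0.054, limma adjusted p = 0.0166) against DMSO and of 0.39 (SE 0.054, adjusted p = 0.0224) against dexamethasone, and PF-03084014 alone stood at -0.082 (adjusted p = 0.652). A second SMAD1 probe set stood at -0.39 (SE 0.11, limma adjusted p = 0.0981) and the dimmest one at 0.54 (SE 0.50) for the combination against DMSO. The dimmest read 40.2 and 107 with the combination and 51.8 and 39.7 in DMSO, so its higher mean came from the second combination array. The mean of the 3 was -0.073 and was not called. Without either DMSO array the call against DMSO ended, at adjusted p = 0.0865 without the first and adjusted p = 0.0737 without the second, with the range over all alternatives 0.0134 to 0.817.

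SMAD5, which carries the same signal, did not pass the test in any comparison. It read 258 and 226 with PF-03084014, 265 and 279.8 with dexamethasone, 284 and 207 with the combination, and 261 and 284 in DMSO. Its differences from DMSO lay between -0.17 and 0.00029 log2 units, and the interval for the combination ran from -0.61 to 0.28. The 4 other SMAD5 probe sets stood between -0.66 and 0.11 for the combination, none called.

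BMPR2, the type II receptor, was higher on the arrays with PF-03084014 than on those without it. Its brightest probe set read 160.4 and 178 with PF-03084014, 124 and 121 with dexamethasone, 199 and 312 with the combination, and 109 and 121 in DMSO. The gene rose in the combination by 1.12 (SE 0.23, limma adjusted p = 0.0404) against DMSO, and stood at 0.56 (SE 0.23, adjusted p = 0.410) with PF-03084014 and 0.095 (SE 0.23) with dexamethasone. The second brightest BMPR2 probe set stood at 0.31 (SE 0.32) for the combination, and the 4 dimmer ones between -0.45 and 0.21. The dimmer ones read at most 40.9 on any array, and 1 of them lay below the floor of 16 on all 8 arrays. At such low intensities they say little about the rise. The mean of all 6, which includes them, stood at 0.21 (limma adjusted p = 0.305). The rise therefore rests on 1 probe set. The higher of its combination arrays was the second, without which the difference was 0.79, and the call held in 2 of 8 fits with an array left out.

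**Figure D2:**
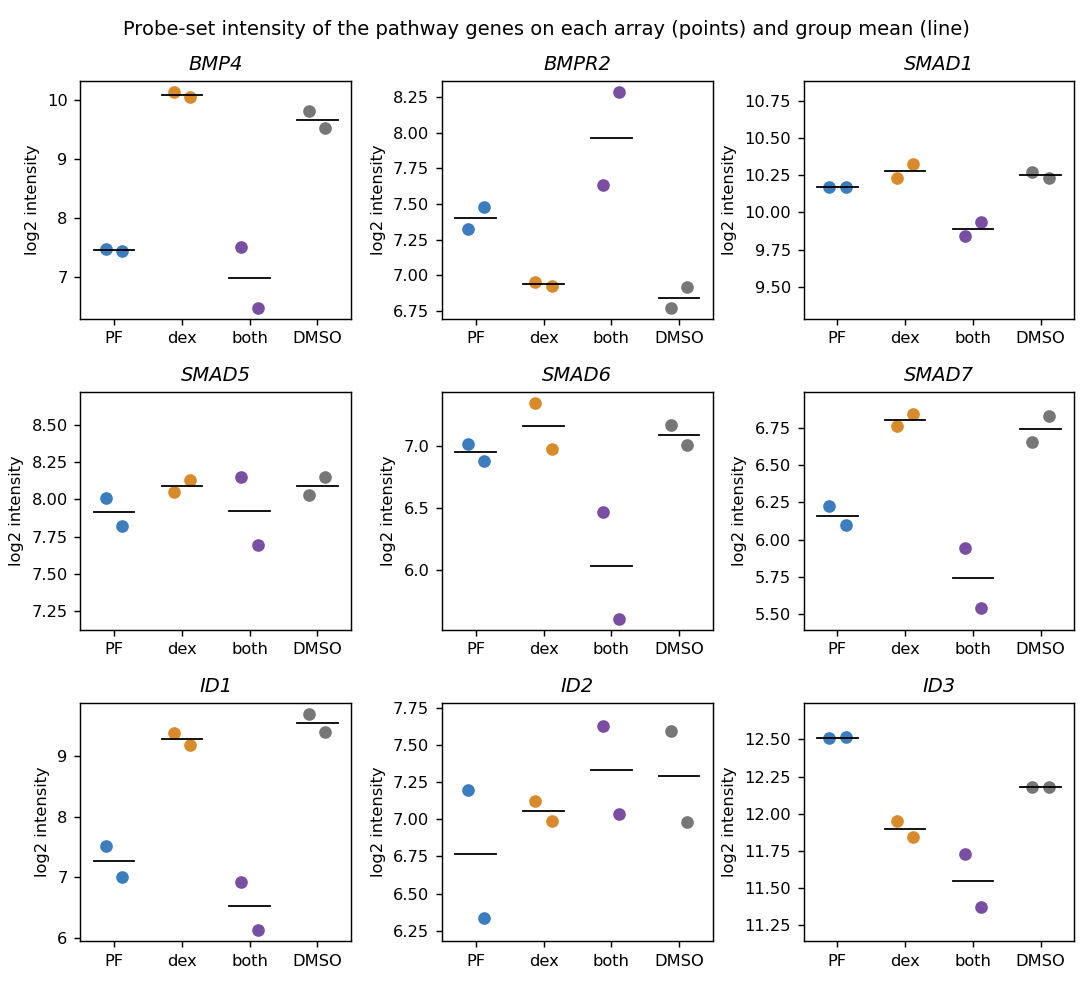
Log2 intensity (y axis; each panel has its own range) of the brightest probe set of each gene on each array (points) with the group mean (line); x axis, PF-03084014 (PF), dexamethasone (dex), the combination (both) and DMSO. BMP4, ID1 and SMAD7 are low with PF-03084014 and with the combination, ID3 is highest with PF-03084014, and the combination is lowest for SMAD1 and SMAD6.

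Counted over the 8 genes other than BMP4, limma called 0 with PF-03084014 against DMSO, where 0.819% of all genes were called, and 3 of the 8 had an unadjusted p under 0.05, against 13.2% of all genes. Both PF-03084014 arrays lay below both DMSO arrays for 4 of the 8 (ID1, SMAD7, SMAD5 and SMAD1) and above them for 2 (ID3 and BMPR2), as was the case for 19.6% and 26.9% of all genes. Dexamethasone called 0 of the 8 by limma, with 0 at an unadjusted p under 0.05, against 0.101% and 8.96% of all genes. With the combination against DMSO 1 rose and 4 fell (BMPR2, and ID1, ID3, SMAD7 and SMAD1), against 6.42% and 5.52% of all genes in these directions and 11.9% in either. Both combination arrays lay below both DMSO arrays for 5 of the 8 and above them for 1, as for 21.5% and 29.1% of all genes. The median difference of the 8 was -0.16, 0.014 and -0.50 for PF-03084014, dexamethasone and the combination, against 0.018, 0.014 and 0.064 over all genes. The 3 comparisons share the DMSO arrays. They also share 1 estimate of the spread, which the more variable combination arrays widen on average for PF-03084014 and dexamethasone against DMSO.

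Against dexamethasone alone, the combination had 3 of the 8 genes lower (ID1, SMAD7 and SMAD1) and 0 higher, where 3.97% and 3.26% of all genes were called. With an array left out, the call held in 6 of 8 fits for ID1, 2 of 8 for SMAD1 and 1 of 8 for SMAD7. Against PF-03084014 alone it had 1 lower, ID3, and 0 higher, where 1.75% and 1.09% of all genes were called. In the interaction limma called 0 of the 8, and 0% of all genes, and 2 of the 8, SMAD1 and ID3, had an unadjusted p under 0.05, against 9.06% of all genes. A difference called with the combination and not with PF-03084014 alone is therefore not shown to differ between them, except for ID3, whose direct comparison was called. That ID3 call held in 2 of 8 fits with an array left out, those without either combination array, and the adjusted p reached 0.164 in the others.

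**Figure D3:**
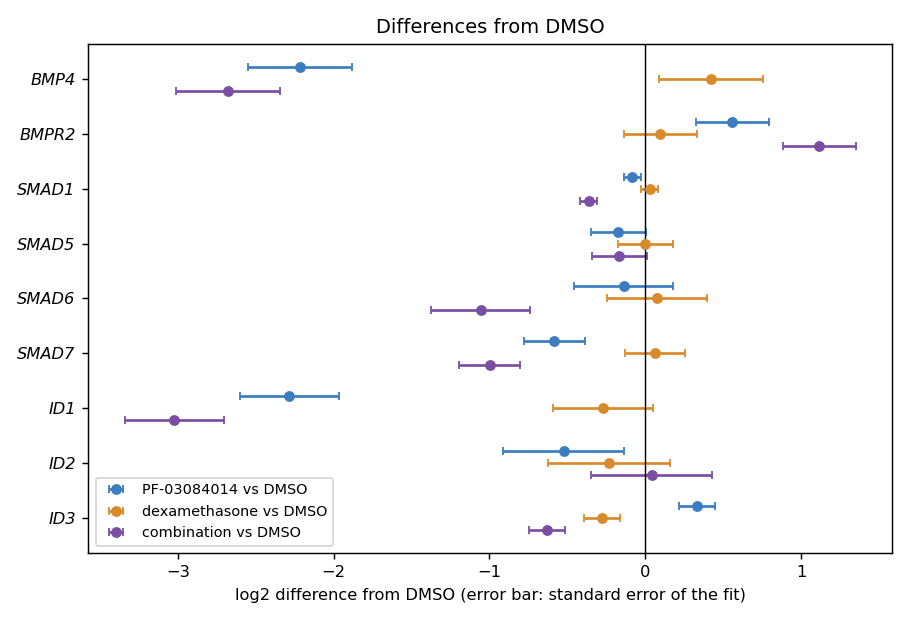
Log2 difference from DMSO (x axis) of each gene (y axis) for PF-03084014, dexamethasone and the combination, with the standard error of the fit as the bar; all 3 share the DMSO arrays. BMP4 and ID1 lie between -3.02 and -2.22 with PF-03084014 or the combination, and ID3 lies at 0.33 with PF-03084014 and at -0.63 with the combination.

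At the level of single probe sets, fitted over all 41097 with 1 gene, 4 of the 23 members other than that of BMP4 were called for the combination against DMSO, all lower, where 7.95% of probe sets were called. They were those of ID1, ID3 and SMAD7 and the brightest of SMAD1. Of the 23, 12 stood above 0, 9 below and 2 were at the intensity floor of 16 in both groups. For PF-03084014 against DMSO, 0 were called by limma and 4 had an unadjusted p under 0.05, against 0.394% and 11.3% of all probe sets.

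**Figure D4:**
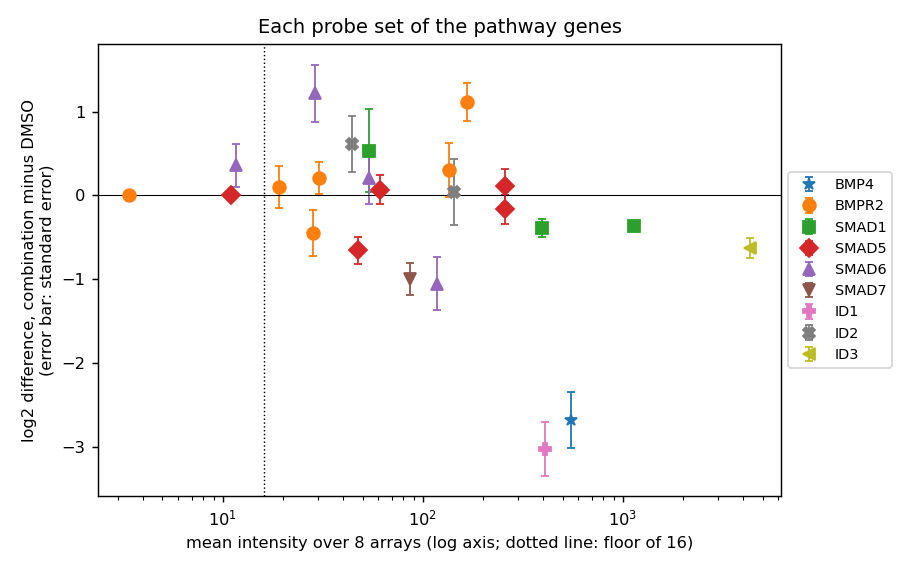
Log2 difference of the combination from DMSO (y axis; bars, standard error of the fit) against mean intensity over the 8 arrays (x axis, log scale) for each of the 24 probe sets of the 9 genes. The probe sets of SMAD6 lie between -1.06 and 1.22 and those of BMPR2 between -0.45 and 1.12, whereas BMP4, ID1, ID3 and SMAD7 have 1 probe set each.

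Beyond these genes, 67 of 69 listed members of the wider pathway were measured. With PF-03084014 or with dexamethasone, 0 of the 67 were called by limma, and 6 with PF-03084014 and 4 with dexamethasone had an unadjusted p under 0.05, or 8.96% and 5.97% of them, below the 13.2% and 8.96% of all genes. With the combination 4 rose, or 5.97%, close to the 6.42% of all genes called higher, so the count is not particular to these lists. None fell, where 5.52% of all genes were called lower. The other 63 were not called, and the median difference was 0.13, against 0.064 over all genes. Of the 4, 2 were listed in the TGF-beta branch, 1 among the intracellular inhibitors and 1 among the E proteins. SMAD3, which carries TGF-beta signals, read 552 and 645 with the combination and 238 and 254 in DMSO, a rise of 1.28 (SE 0.11, limma adjusted p = 0.00486). The type II TGF-beta receptor gene TGFBR2 rose by 1.07 (SE 0.11, adjusted p = 0.00588). SKI, a co-repressor that binds SMAD proteins, rose by 0.48 (SE 0.067, limma adjusted p = 0.0136), and the E protein gene TCF12 by 0.31 (SE 0.063, adjusted p = 0.0367). Both arrays of PF-03084014 alone also lay above both DMSO arrays for these 4, as for 26.9% of all genes. With PF-03084014 and in DMSO, SKI read 865 and 829 against 678 and 624, and TCF12 7381 and 7629 against 5772 and 6493. Against PF-03084014 alone, the combination had 1 of the 67 called higher, in the TGF-beta branch, where 1.09% of all genes were.

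The remaining lists had no call against DMSO. The member farthest from DMSO was GDF5 among 12 ligands (-0.96 with dexamethasone), ACVR2A among 9 receptors (1.17 with the combination, SE 0.30), SMAD9 of the 2 other transducers (-0.32 with dexamethasone), and DLX5 among 8 other BMP targets (-1.05 with dexamethasone). NOG, a secreted antagonist that binds BMP4, was the farthest of 12 antagonists. It read 26.6 and 24.6 with PF-03084014, 19.2 and 29.5 with dexamethasone, 30.3 and 19.8 with the combination, and 49.2 and 55.3 in DMSO. Its arrays from all 3 treatments lay below both DMSO arrays, at -1.03, -1.13 and -1.09, with the lowest adjusted p, 0.0720, for the combination, at intensities below the array median.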

How the data were processed

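RNA from 8 CUTLL1 samples was measured on 1-colour expression arrays. The deposited table held linear probe-set intensity values as the authors processed them; the normalization is not given in the sources used here. Of 54675 probe sets, 41097 had 1 gene symbol in the platform annotation, 1801 had several and 11777 none. Intensities below 16 were set to 16 and log2 was taken. Each gene was read by its brightest probe set over all arrays. A limma fit (limma 3.58.1, R 4.3.3) of the 4 groups, with an intensity trend, shared 1 estimate of the spread. It has 4 residual degrees of freedom. The log2 difference between replicates had an SD over genes of 0.548 in the combination, against 0.325 to 0.361 in the other groups. On average its standard errors are therefore too small for the combination and too large for comparisons among the other groups. A missing call in the latter does not show that a gene was unchanged. Tests were two-sided, and the script was tested on simulated data. The number of arrays limits the precision. Named genes were all members, called genes of the wider lists or otherwise each list's farthest from DMSO, the 5 genes nearest BMP4, and NRARP and TSC22D3. Members and lists were chosen with earlier results of these data known. Alternatives changed the scaling, the floor, the probe-set rule, the filter, the model and the arrays used.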

Additional observations from a re-analysis of the deposited data

Results flagged for a closer look

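For ID3, both PF-03084014 arrays lay above both DMSO arrays, by 0.33 log2 units, and both combination arrays lay below both dexamethasone arrays, by -0.35. The interaction, the test of that difference, was -0.68 (SE 0.16) and did not pass (limma adjusted p = 0.382); leaving out the first combination array gave adjusted p = 0.0307, the lowest over the alternatives, which reached 0.712.

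The probe set annotated to both ID2 and ID2B was outside the tested table and differed between groups. It read 27.2 and 30.4 with PF-03084014, 76.8 and 60.2 with dexamethasone, 94.6 and 109 with the combination, and 33.1 and 38.7 in DMSO. It stood 0.93 log2 units higher with dexamethasone than in DMSO and 1.505 higher with the combination than in DMSO. The difference was not tested, and the probe set cannot be assigned to either gene.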

How the results depend on the processing

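Each count of called genes or probe sets below is by limma, and the cause of each change was not tested. For PF-03084014 against DMSO, 1 gene (ID1), in place of 0, was called after a shift to a common median, with a pseudocount of 16, among genes at or above the median intensity, with array weights and with the replicate block, and 1 probe set in place of 0 under the first 4 of these. The adjusted p of ID1 ranged from 0.00218 to 0.295. For the combination against DMSO, 5 genes and 4 probe sets became 3 genes with the mean of all probe sets, 3 genes and 2 probe sets without _s_at and _x_at probe sets (which drops the ID genes), 2 genes and 1 probe set with array weights, and 2 probe sets with the replicate block. For the combination against dexamethasone, 3 genes and 2 probe sets became 5 and 5 with the pseudocount, 0 and 0 with array weights, 5 probe sets among brighter ones, and 1 probe set with quantile normalization, the shift, the replicate block or no _s_at and _x_at sets. For the combination against PF-03084014, 1 gene and 1 probe set became 0 and 0 without _s_at and _x_at sets or with array weights, and 0 probe sets with a floor of 64, no trend or the replicate block. Fitting only the groups compared gave 0 in all of these comparisons. It also gave 0 over all genes.

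With each array left out in turn, where a lone sample is assumed to vary like the other groups, the genes called numbered 0 to 1 for PF-03084014, 0 to 0 for dexamethasone and 1 to 6 for the combination against DMSO, 0 to 6 for the combination against dexamethasone, 0 to 3 against PF-03084014 and 0 to 1 for the interaction. The probe sets called numbered 0 to 0, 0 to 0, 0 to 7, 0 to 7, 0 to 3 and 0 to 1 in the same order. The BMP4 difference ranged from -2.37 to -2.07, from 0.27 to 0.57 and from -3.19 to -2.17 against DMSO, from -3.62 to -2.59 for the combination against dexamethasone, from -0.98 to 0.048 against PF-03084014, and from -1.40 to -0.37 for the interaction. Leaving out the first combination array raised the genes called over the whole table for the combination against DMSO to 6219, against 2360 with all arrays, and for the interaction to 1016, against 0.

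Over the 9 called differences of single genes, all 165 alternative values kept their sign and 100 kept their call. Of 709 alternative values of the 39 uncalled differences, 19 were called. A shift to a common median moved the share of called genes that were higher to 44.8% for PF-03084014 (57.4% before), 100% for dexamethasone (85% before) and 31.9% for the combination (53.8% before) against DMSO, and to 17.4% against dexamethasone (45.1% before) and 24.0% against PF-03084014 (38.3% before), with the median of all genes in the combination against DMSO at -0.067 in place of 0.064. Deviations of same-numbered arrays from their group means had correlations of -0.010 to 0.082 over all genes. Such low values do not settle whether the numbers pair the samples, and the labels do not say.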
